A study of Mus musculus with 18 samples.

Results

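Tnf superfamily ligands and receptors were followed in cultured mouse macrophages that carried or lacked Klf3, which encodes a DNA-binding protein of the Krüppel-like (KLF) group that mostly represses transcription. The genes were Tnf, Ltb, Tnfsf9, Tnfsf10, Tnfsf13b and Tnfsf15 among the ligands, and Fas, Tnfrsf1a, Tnfrsf1b and Tnfrsf9 among the receptors. They were chosen by symbol, taking every probe set assigned to that single gene. This gave 16 probe sets for 9 of the 10 genes, out of 45037 probe sets in all, and Tnfsf15, to which the assignment used gives no probe set, was not analysed here. Bone marrow-derived macrophages came from male FVB/NJ mice aged 10 to 14 weeks and were grown for 7 to 10 days with L929-conditioned medium, a source of the macrophage growth factor M-CSF. The 6 groups, with 3 arrays each, were Klf3 knockout (KO) cells after LPS, wild-type (WT) cells after LPS, KO cells after vehicle, WT cells after vehicle, KO cells at 0 h and WT cells at 0 h. LPS, the lipopolysaccharide of Gram-negative bacteria, was given at 100 ng/mL for 8 h, the vehicle was phosphate-buffered saline for 8 h, and the 0 h cells were harvested untreated. All cells were washed free of conditioned medium first, so the 8 h vehicle cells had also spent 8 h without it. How the Klf3 allele was made, and whether the replicates came from separate mice or cultures, is not given in the sources used here, so the p-values describe the spread between the arrays of a group, which may be technical.

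The ligands of this superfamily are mostly membrane proteins that act as trimers, on the cell surface or after being cut off it. The receptors signal through TRAF adaptors towards NF-kB and MAP kinases, and those with a death domain can also start cell death through caspases. Macrophages are a main source of TNF after LPS is sensed by TLR4, and they carry both TNF receptors themselves. Values below are log2 intensities after quantile normalization, 1 per array. In each array a nonspecific level, the 95th percentile of 23 control probe sets for nonspecific signal, stood between 3.71 and 4.54, and a value at or under it is called not above that level. Differences are log2 differences ± standard error from 1 limma fit to all 18 arrays, with p-values adjusted by Benjamini-Hochberg over 17097 genes and a threshold of 0.05. Probe sets differ in brightness, so levels are compared between samples and never between genes.

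Tnf and Tnfrsf9 were the members whose response to LPS differed between the genotypes, so the 250 bases before their start sites are shown (RefSeq, GRCm38.p6, each 5′ to 3′ on the gene's strand). Capitals mark matches to CACCC, a motif class bound by KLF proteins, and to the NF-kB consensus.
Tnf, chr17:35202008-35202257, minus strand: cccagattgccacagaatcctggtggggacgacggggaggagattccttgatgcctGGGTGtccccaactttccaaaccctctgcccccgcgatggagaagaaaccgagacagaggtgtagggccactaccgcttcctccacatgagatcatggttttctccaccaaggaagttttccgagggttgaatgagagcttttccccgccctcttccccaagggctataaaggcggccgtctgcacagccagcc
Tnfrsf9, first start, chr4:150919905-150920154, plus strand: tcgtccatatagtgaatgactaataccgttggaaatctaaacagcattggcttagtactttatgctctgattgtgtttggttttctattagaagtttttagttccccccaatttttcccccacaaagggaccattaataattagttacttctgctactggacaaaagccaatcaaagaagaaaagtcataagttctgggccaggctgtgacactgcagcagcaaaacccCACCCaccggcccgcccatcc
Tnfrsf9, second start, chr4:150927749-150927998, plus strand: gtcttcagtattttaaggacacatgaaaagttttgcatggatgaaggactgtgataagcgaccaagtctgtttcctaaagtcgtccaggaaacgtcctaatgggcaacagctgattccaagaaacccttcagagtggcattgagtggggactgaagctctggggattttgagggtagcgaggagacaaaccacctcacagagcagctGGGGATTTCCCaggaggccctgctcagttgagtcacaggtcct
The Tnf window held 1 CACCC match, on the opposite strand, 194 to 190 bases before the start, and the letters TATAA at 29 to 25 bases. No NF-kB consensus match lay in these 250 bases. The first Tnfrsf9 window held 1 CACCC match 21 to 17 bases before the start. The second held no CACCC match but 2 overlapping NF-kB matches, GGGGATTTCC and GGGATTTCCC, which together span 43 to 33 bases before the start. Over 32851 promoter windows of the same length, with both strands searched, 52% held CACCC, 22.8% held TATAA and 7.25% held the NF-kB consensus. Windows were found for 9 of the 10 genes, 11 windows in all, since Tnfsf13b and Tnfrsf9 have more than one start. Among the others, only Ltb held an NF-kB match, 1 at 87 to 78 bases before its start. CACCC was not particular to Tnf and Tnfrsf9: Ltb held 4 matches, Fas 2, Tnfrsf1a 1 and Tnfrsf1b 2. The windows of Tnfsf10, Tnfsf13b and Tnfsf15 held none.

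The knockout was visible in some of the Klf3 probe sets. Klf3 probe set 1421604_PM_a_at lay between 2.77 and 3.18 in KO LPS arrays and between 7.07 and 8.20 in WT LPS arrays. It lay between 2.47 and 3.89 in KO vehicle arrays, against 7.01 to 7.96 in WT vehicle arrays, and between 2.94 and 4.12 in KO 0 h arrays, against 7.52 to 8.12 in WT 0 h arrays. Probe set 1429360_PM_at was also lower in KO cells in every condition. Probe set 1454666_PM_at was lower after LPS and after vehicle, and did not pass at 0 h (-1.18, adjusted p = 0.249 over all probe sets). Probe sets 1431630_PM_a_at, 1441200_PM_at and 1442920_PM_at passed in no condition. Of these, 1431630_PM_a_at read higher in KO cells, by 1.31 after vehicle (adjusted p = 0.506) and 1.51 at 0 h (adjusted p = 0.134). The labels do not say which of the 6 Klf3 probe sets lie in the deleted part. All 7 measured macrophage markers, of 8 listed, were above the nonspecific level in every array. All 4 measured dendritic cell markers and all 4 mast cell and basophil markers were at or under it in every array. Cd79b, of the B and plasma cell list, was above it in every KO array and in only part of the arrays of each WT group. Pdgfrb, of the stromal list, was above it in some or all arrays of each group. The other measured markers of both lists were above it in no array. Pf4, of the erythroid and megakaryocyte list, was above it in every array. The part of these markers in the results was not tested. Of 5 measured neutrophil markers, Camp was above the level in every LPS array of both genotypes, and Elane, Mpo and Ltf were above it in no array. The summed neutrophil level was 8.16 to 8.47 in KO LPS and 7.31 to 8.28 in WT LPS arrays, against 5.27 to 5.50 in KO vehicle and 5.52 to 5.63 in WT vehicle arrays. Its part in the LPS results was not tested. The WT LPS arrays spread most, with a standard deviation from their group mean of 0.277 to 0.336 over all genes, against 0.165 to 0.266 in the other arrays. The 5′ minus 3′ Gapdh signal, a measure of RNA integrity, moved with the conditions. It ran from -0.49 to -0.40 in KO LPS and from -0.63 to -0.07 in WT LPS arrays, from -0.30 to -0.14 in KO vehicle and from -0.24 to -0.08 in WT vehicle arrays, and from 0.00 to 0.15 in KO 0 h and from 0.11 to 0.16 in WT 0 h arrays. The KO LPS, KO vehicle and KO 0 h arrays did not overlap, nor did the WT vehicle and WT 0 h arrays. The same measure for actin overlapped between LPS and vehicle. It ran from -0.43 to -0.29 in KO LPS and from -0.46 to -0.27 in KO vehicle arrays. In WT cells it ran from -0.38 to -0.15 after LPS and from -0.37 to -0.20 after vehicle. At 0 h it ran from -0.18 to -0.12 in KO and from -0.21 to -0.15 in WT arrays. The part of RNA integrity in the differences between conditions was not tested. Each row of the array plate held 1 treatment condition only, and the effects of row and treatment cannot be told apart.

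Most of the 9 genes rose with LPS in both genotypes. In KO cells 6 of 9 genes rose and Tnfsf13b fell, where 34.5% of all genes tested passed the threshold, 13.9% rising and 20.6% falling. In WT cells 7 of 9 genes rose and none fell, where 32.3% of all genes passed, 13.7% rising and 18.7% falling. The median difference of the 9 genes was 1.34 in KO cells and 1.72 in WT cells, and the median of all genes was -0.03 in KO cells and -0.01 in WT cells. Tnf, Tnfsf9, Tnfsf10, Tnfrsf1a, Tnfrsf1b and Fas rose in both, and Tnfrsf9 was the seventh gene in WT cells. With the other measured ligands and receptors of the superfamily added, 12 of 42 rose and 9 fell in KO cells, and 16 of 42 rose and 6 fell in WT cells. Those counts include genes, named below, with no LPS or vehicle array above the nonspecific level. RNA of whole cultures was measured, so fewer cells of a type and less RNA per cell cannot be told apart.

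**Figure D1:**
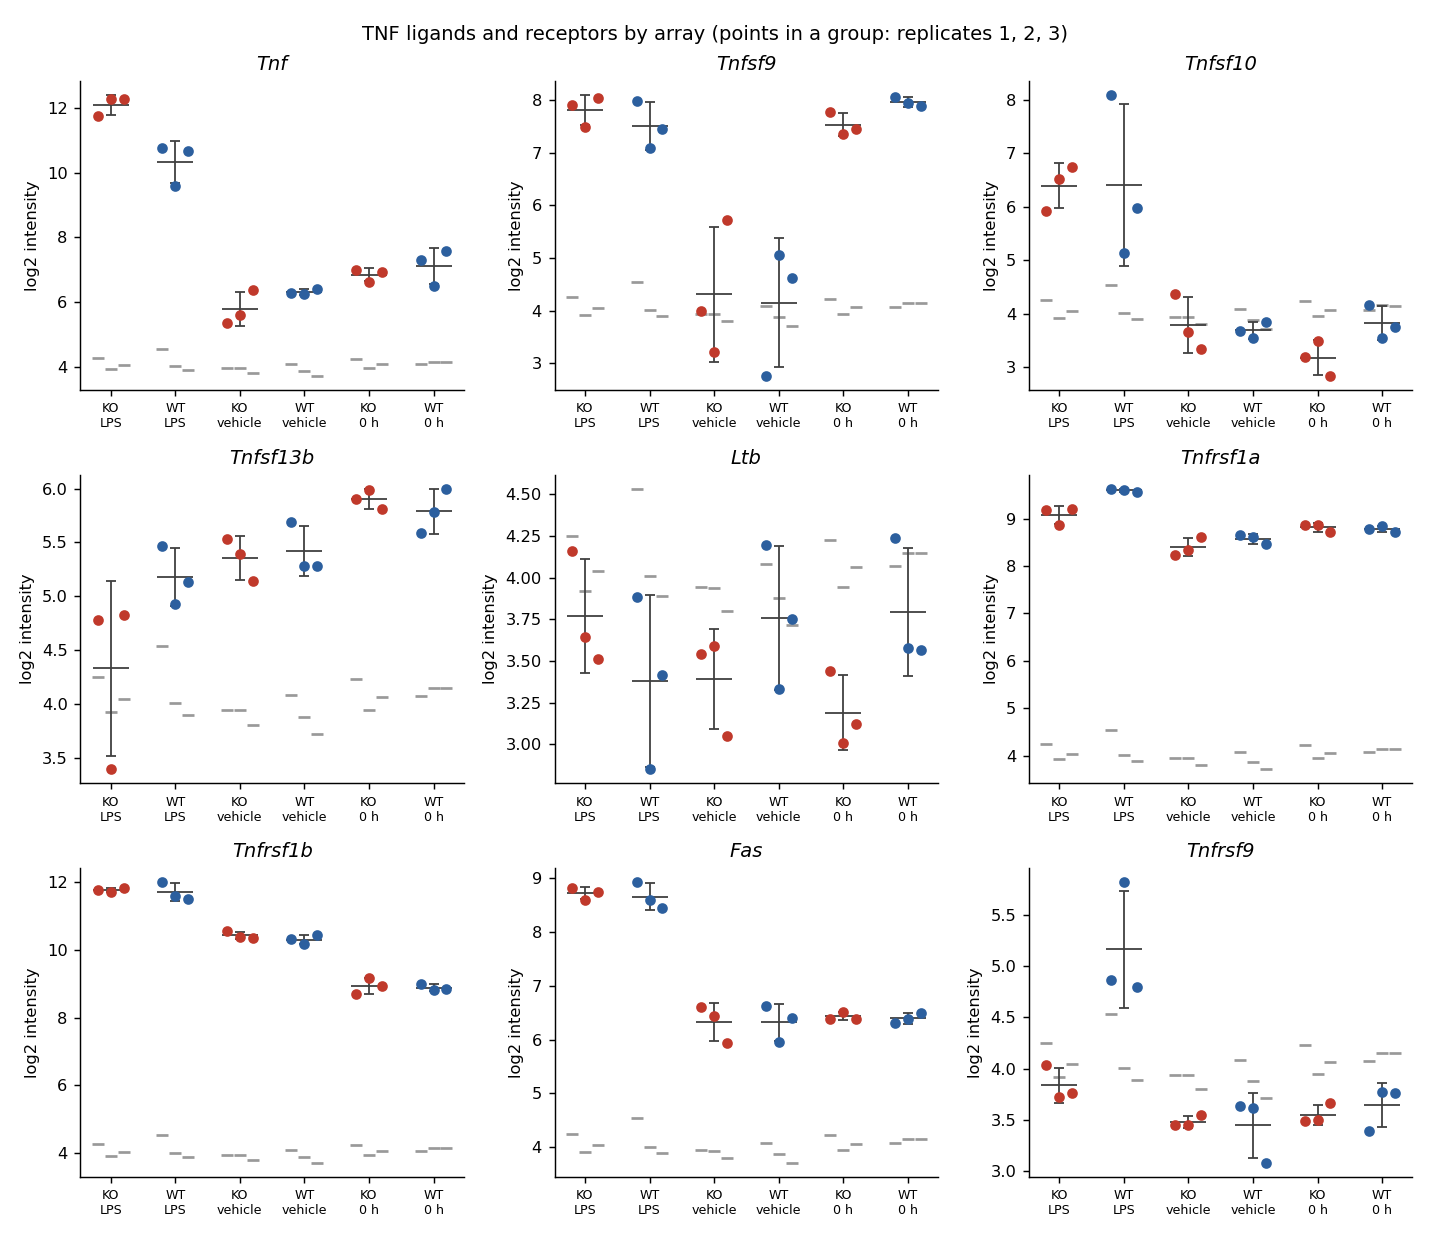
Log2 intensity (vertical axes) of the probe set that stood for each of the 9 genes, with 1 point per array, KO red and WT blue. Long bars are group means, error bars are SDs (n = 3) and short grey ticks give each array's nonspecific level. Tnf stands highest in the KO LPS arrays (11.75 to 12.28), and Tnfrsf9 lies above the grey ticks in the WT LPS arrays alone.

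Tnf encodes the founding cytokine of the family, an early alarm signal of macrophages. Its 3 KO LPS arrays read 11.75, 12.28 and 12.27, and its 3 WT LPS arrays read 10.77, 9.60 and 10.66. KO vehicle arrays read 5.36, 5.59 and 6.36, against 6.29, 6.23 and 6.39 in WT vehicle arrays. Every LPS array lay far above every vehicle array, and the KO LPS arrays lay above all WT LPS arrays. KO 0 h arrays read 6.99, 6.61 and 6.94, against 7.28, 6.51 and 7.56 in WT 0 h arrays, so cells at 0 h overlapped between genotypes, as did cells after vehicle.

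LPS raised Tnf by 6.33 ± 0.32 in KO cells (80.4-fold, adjusted p = 2.71e-10, n = 3 arrays each) and by 4.04 ± 0.32 in WT cells (16.4-fold, adjusted p = 6.09e-08, n = 3 each). The response was 2.29 ± 0.45 larger in KO cells (95% interval 1.34 to 3.25, adjusted p of the interaction 0.0168), a 4.90-fold difference. After LPS itself, Tnf was 1.76 ± 0.32 higher in KO than in WT cells (3.39-fold, adjusted p = 0.00317). WT LPS replicate 2 was the lowest of its group, and without it the difference after LPS was 1.39 (adjusted p = 0.0149). The interaction passed narrowly: its adjusted p was 0.0503 to 0.0529 without WT vehicle replicate 3, without KO vehicle replicate 1 or 2, without KO LPS replicate 2 or 3, or with only the groups compared in the fit, while its size stayed between 2.09 and 2.29. Over all its alternatives the adjusted p ran from 0.00508 to 0.0529. With only the KO and WT LPS arrays in the fit, the adjusted p of the difference after LPS was 0.077, the highest of its alternatives, and the lowest was 0.00076. One probe set reads Tnf on this array, so no other gives a check.

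Tnfsf9 encodes the ligand of the co-stimulatory receptor 4-1BB. Its KO LPS arrays read 7.91, 7.49 and 8.03, and its WT LPS arrays 7.98, 7.08 and 7.45. After vehicle it read 3.99, 3.22 and 5.73 in KO cells, against 2.76, 5.06 and 4.63 in WT cells. Vehicle was the low point, with 2 of 3 arrays of each genotype above the nonspecific level and the widest spread of any Tnfsf9 group. At 0 h it read 7.78, 7.36 and 7.45 in KO cells and 8.06, 7.94 and 7.88 in WT cells, close to the levels after LPS.

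LPS against vehicle gave a Tnfsf9 difference of 3.50 ± 0.55 in KO cells (11.3-fold, adjusted p = 7.84e-05) and 3.35 ± 0.55 in WT cells (10.2-fold, adjusted p = 0.000136). With dim values set at the nonspecific level these were 3.26 in KO cells and 2.91 in WT cells. The spread of the vehicle arrays shows here: the KO rise was 4.21 without KO vehicle replicate 3, and the WT rise was 2.66 without WT vehicle replicate 1 and also 2.66 with deposited values unscaled. Vehicle against 0 h gave a fall of about the same size, -3.22 ± 0.55 in KO cells (9.29-fold lower, adjusted p = 0.000977) and -3.81 ± 0.55 in WT cells (14.0-fold lower, adjusted p = 0.000231). Without those same vehicle arrays it was -3.92 in KO cells and -3.11 in WT cells. Set against 0 h, a comparison added after the data were seen, LPS gave 0.28 in KO cells (95% interval -0.87 to 1.44, adjusted p = 0.749) and -0.45 in WT cells (95% interval -1.61 to 0.71, adjusted p = 0.579). Tnfsf9 thus rose against vehicle, while neither genotype passed the threshold against 0 h, with intervals that still hold changes of more than 1 in the log2 scale. The responses to LPS differed between genotypes by 0.14 (95% interval -1.49 to 1.78), which did not pass.

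Tnfsf10 encodes TRAIL, a ligand that can kill cells through death receptors and is known as interferon-induced. Probe set 1459913_PM_at read 5.92, 6.53 and 6.73 in KO LPS arrays and 8.09, 5.14 and 5.98 in WT LPS arrays. The arrays of the other 4 groups lay between 2.83 and 4.37, of which 3 of 12 were above the nonspecific level. LPS raised it by 2.61 ± 0.51 in KO cells (6.11-fold, adjusted p = 0.000606) and by 2.72 ± 0.51 in WT cells (6.58-fold, adjusted p = 0.000478). Only 1 of 3 vehicle arrays of each genotype was above the nonspecific level, and with dim values set at it the difference was 2.36 in KO cells and 2.47 in WT cells. The WT rise was 1.87 without WT LPS replicate 1 and 3.35 without WT LPS replicate 2, both past the threshold. The WT values spread over nearly 3 log2 units: replicate 1 was the highest and replicate 2 the lowest in all 3 probe sets of the gene. The other probe sets read 7.58, 4.43 and 5.66, and 7.84, 4.44 and 5.69, in WT LPS replicates 1, 2 and 3, against 6.06, 6.38 and 6.74, and 5.83, 5.61 and 6.03, in the KO LPS replicates. WT LPS replicate 1 also had the least 5′ loss of its group by the Gapdh measure (-0.07, against -0.40 and -0.63), and the part of this in its level was not tested. After LPS the genotypes differed by -0.01 (95% interval -1.08 to 1.07, adjusted p = 0.996), an interval too wide to exclude a doubling either way.

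**Figure D2:**
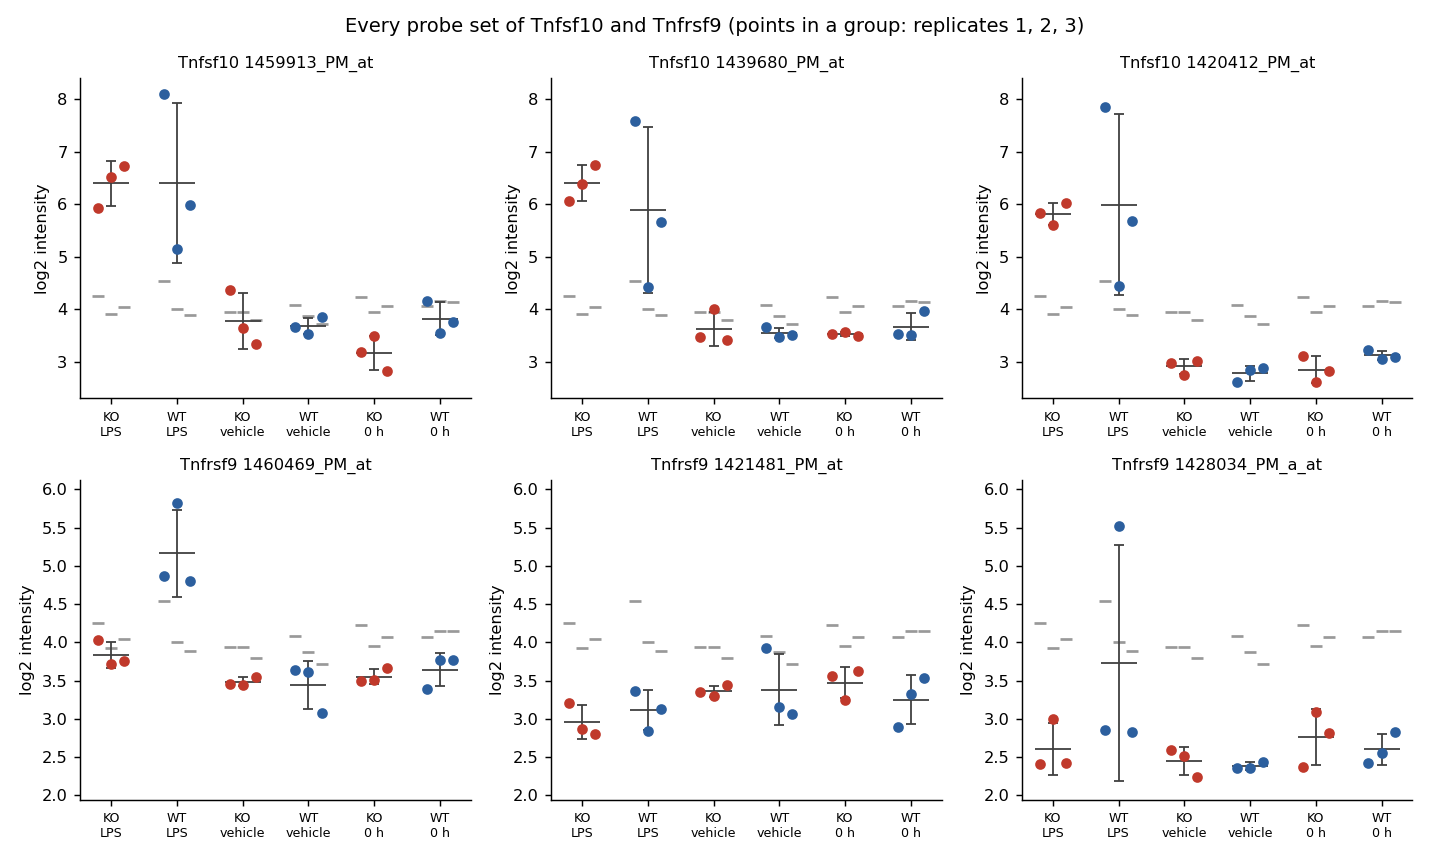
Log2 intensity of each of the 3 probe sets of Tnfsf10 (top) and of Tnfrsf9 (bottom), with 1 point per array, KO red and WT blue, group means with SD (n = 3) and grey ticks for each array's nonspecific level. The 3 Tnfsf10 probe sets order the WT LPS arrays alike, and the Tnfrsf9 probe sets differ, with only 1460469_PM_at above the ticks in all 3 WT LPS arrays.

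Tnfsf13b encodes BAFF, a survival factor for B cells that myeloid cells release. Its brightest probe set read 4.77, 3.39 and 4.82 in KO LPS arrays and 5.47, 4.93 and 5.14 in WT LPS arrays. It read 5.53, 5.40 and 5.14 in KO vehicle arrays, against 5.69, 5.28 and 5.28 in WT vehicle arrays. At 0 h it read 5.90, 5.99 and 5.81 in KO cells and 5.58, 5.78 and 6.0 in WT cells. In KO cells the mean was highest at 0 h and lowest after LPS, with KO LPS replicate 2 alone under the nonspecific level, and in WT cells the LPS and vehicle arrays overlapped.

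Tnfsf13b fell with LPS in KO cells (log2 difference -1.03 ± 0.28, 2.04-fold lower, adjusted p = 0.00911), and the WT difference was -0.24 ± 0.28 (adjusted p = 0.59). Without KO LPS replicate 2 the KO fall was -0.56 (adjusted p = 0.0301). The KO call ended with only the groups compared in the fit (-1.03, adjusted p = 0.081). With the median of its 3 probe sets, of which the other 2 were under the nonspecific level in every array, the KO difference was 0.00 (adjusted p = 0.991). KO LPS arrays all lay under the WT LPS arrays, and the difference of -0.85 ± 0.28 did not pass (adjusted p = 0.0961). Nor did the difference between the responses, -0.78 ± 0.40 (95% interval -1.63 to 0.06, adjusted p = 0.464).

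Ltb encodes lymphotoxin beta, the membrane anchor of the lymphotoxin heterotrimer. It read 4.16, 3.64 and 3.51 in KO LPS arrays and 3.88, 2.85 and 3.42 in WT LPS arrays, and it was above the nonspecific level in 3 of 18 arrays, 2 of WT vehicle and 1 of WT 0 h. No comparison of Ltb passed the threshold: LPS against vehicle gave 0.38 ± 0.28 in KO cells (adjusted p = 0.348) and -0.38 ± 0.28 in WT cells (adjusted p = 0.359). At this signal no change of Ltb was detectable.

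Tnfrsf1a encodes TNFR1, the receptor with a death domain through which soluble TNF acts on most cells. It read 9.17, 8.86 and 9.19 in KO LPS arrays and 9.63, 9.60 and 9.55 in WT LPS arrays. After vehicle it read 8.23, 8.35 and 8.61 in KO cells and 8.65, 8.60 and 8.46 in WT cells. At 0 h both genotypes lay between 8.71 and 8.86. The WT LPS arrays were the highest and did not overlap with the KO LPS arrays, and the vehicle arrays of the genotypes overlapped.

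LPS raised Tnfrsf1a over vehicle by 0.68 ± 0.12 in KO cells (1.60-fold, adjusted p = 0.000288) and by 1.02 ± 0.12 in WT cells (2.03-fold, adjusted p = 5.58e-06). Against 0 h, a comparison added after the data were seen, the KO difference was 0.26 and did not pass (adjusted p = 0.106). The WT difference against 0 h was 0.82 (adjusted p = 4.73e-05). After LPS, Tnfrsf1a was 1.43-fold lower in KO cells (log2 difference -0.52 ± 0.12, adjusted p = 0.0173). That call ended without WT LPS replicate 2 (-0.52, adjusted p = 0.0503), without KO LPS replicate 2 (-0.41, adjusted p = 0.0904) and with only the groups compared in the fit (adjusted p = 0.233). It also ended with arrays shifted to the same median (-0.43, adjusted p = 0.278) and with the deposited values in log2 and no further scaling (-0.21, adjusted p = 0.546). Relative to the median of all genes, which those scalings moved to 0.07 and 0.29, the difference was -0.50 under each of the 3 scalings. Over all its alternatives the adjusted p ran from 0.00563 to 0.546. The difference between the responses, -0.35 ± 0.17 (95% interval -0.71 to 0.02), did not pass (adjusted p = 0.441). With the deposited values unscaled the WT rise was 0.53 (adjusted p = 0.0638).

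Tnfrsf1b encodes TNFR2, the receptor for membrane-bound TNF, which signals through TRAF2 and has no death domain. Its brighter probe set, 1418099_PM_at, read 11.77, 11.72 and 11.84 in KO LPS arrays and 12.01, 11.60 and 11.51 in WT LPS arrays. After vehicle it read 10.55, 10.38 and 10.37 in KO cells and 10.32, 10.18 and 10.43 in WT cells. At 0 h it read 8.70, 9.17 and 8.92 in KO cells, against 9.0, 8.82 and 8.85 in WT cells. The 3 conditions stood in 3 separate steps, 0 h lowest and LPS highest, with KO and WT arrays mixed within each step.

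Tnfrsf1b rose with LPS over vehicle by 1.34 ± 0.14 in KO cells (2.54-fold, adjusted p = 1.5e-06) and by 1.40 ± 0.14 in WT cells (2.63-fold, adjusted p = 1.28e-06). It was also higher in vehicle than in 0 h cells, by 1.5 ± 0.14 in KO cells (2.83-fold, adjusted p = 8.18e-06) and by 1.42 ± 0.14 in WT cells (2.68-fold, adjusted p = 1.45e-05). Against 0 h, LPS gave 2.84 in KO cells and 2.82 in WT cells. The second probe set, 1448951_PM_at, rose with LPS over vehicle too, by 1.91 ± 0.32 in KO cells and 1.67 ± 0.32 in WT cells. It did not pass between vehicle and 0 h: the difference was 0.06 ± 0.32 in KO cells (adjusted p = 0.947) and 0.65 ± 0.32 in WT cells (adjusted p = 0.249, both over all probe sets). The step between 0 h and vehicle thus rests on 1 of the 2 probe sets, and with their median the KO difference was 0.78 (adjusted p = 0.0260). No genotype difference of Tnfrsf1b passed, and after LPS it was 0.07 (95% interval -0.24 to 0.37).

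Fas encodes the death receptor for Fas ligand. It read 8.81, 8.60 and 8.74 in KO LPS arrays and 8.93, 8.59 and 8.45 in WT LPS arrays, while all 12 other arrays lay between 5.94 and 6.62. Its rise with LPS was 2.39 ± 0.18 in KO cells (5.23-fold, adjusted p = 3.76e-08) and 2.33 ± 0.18 in WT cells (5.04-fold, adjusted p = 6.31e-08). With the deposited values unscaled the WT rise was 1.68 (adjusted p = 2.79e-05). The responses differed by 0.05 (95% interval -0.50 to 0.60) and the genotypes after LPS by 0.06 (95% interval -0.33 to 0.45), neither past the threshold. Vehicle and 0 h cells differed by -0.10 in KO and -0.07 in WT cells, and neither passed.

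Tnfrsf9 encodes 4-1BB, also called CD137, the inducible receptor of the Tnfsf9 ligand, best known on activated T cells. Probe set 1460469_PM_at read 4.04, 3.72 and 3.76 in KO LPS arrays and 4.87, 5.82 and 4.80 in WT LPS arrays. The 12 other arrays lay between 3.08 and 3.77. Only the 3 WT LPS arrays were above the nonspecific level, and WT LPS replicate 2 was the highest of them. The summed level of 6 measured T and NK cell markers was 5.77 to 6.26 in KO LPS and 6.09 to 6.18 in WT LPS arrays, against 5.76 to 6.0 in KO vehicle and 5.64 to 5.80 in WT vehicle arrays. Cd3e was above the nonspecific level in every LPS, vehicle and WT 0 h array and in part of the KO 0 h arrays. Cd247 was above it in part of the LPS arrays of each genotype and in no vehicle or 0 h array. The part of these T and NK cell markers in the Tnfrsf9 signal was not tested.

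In WT cells LPS raised Tnfrsf9 by 1.72 ± 0.22, at least 2.42-fold against the nonspecific level (95% interval of the log2 difference 1.24 to 2.19, adjusted p = 1.45e-05). The KO difference was 0.36 ± 0.22 (adjusted p = 0.253). The response was smaller in KO cells, the difference being -1.36 ± 0.32 (95% interval -2.03 to -0.69, adjusted p of the interaction 0.0491). After LPS, Tnfrsf9 was at least 2.13-fold lower in KO cells by the same measure (log2 difference -1.33 ± 0.22, 95% interval -1.80 to -0.85, adjusted p = 0.00185). Those folds allow for dim signal and not for the spread between arrays, so the intervals hold smaller changes. Without WT LPS replicate 2 the difference after LPS was -1.0 (adjusted p = 0.00404) and the interaction -1.03 (adjusted p = 0.0512). The interaction is borderline: its call also ended without any 1 of the 3 WT vehicle or 3 KO vehicle arrays and without KO LPS replicate 2 or 3, with adjusted p between 0.0682 and 0.139. It ended with arrays shifted to the same median (-1.2, adjusted p = 0.0903), with deposited values (-0.93, adjusted p = 0.114), with dim values set at that level (-1.09, adjusted p = 0.0516) and with only the groups compared in the fit (adjusted p = 0.169). Over its alternatives the adjusted p ran from 0.0168 to 0.508. Adjusted over all 45037 probe sets in place of genes, its adjusted p was 0.0688.

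The other Tnfrsf9 probe sets gave less. Probe set 1421481_PM_at was under the nonspecific level in every array, and 1428034_PM_a_at was above it in 1 array, WT LPS replicate 2, at 5.52. The LPS difference of the second, 1.35 ± 0.48 in WT cells (adjusted p = 0.0478 over all probe sets), sets a WT LPS mean of that array and 2 arrays under the level against vehicle arrays that all lie under it. With the median of the 3 probe sets the WT rise was 0.72 (adjusted p = 0.225), the interaction -1.07 (adjusted p = 0.508) and the difference after LPS -1.0 (adjusted p = 0.197). With only the groups compared in the fit, the difference after LPS was not past the threshold (adjusted p = 0.107).

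Between the genotypes, members passed the threshold after LPS and at neither of the other 2 conditions. After LPS, Tnf was higher and Tnfrsf9 and Tnfrsf1a were lower in KO cells, 3 of 9, where 5.97% of all genes passed, 2.82% higher and 3.15% lower. Tnfsf13b also had KO and WT arrays that did not overlap, which makes 4 of 9 genes, against 18.5% of all genes. In the difference between the responses to LPS, 2 of 9 genes passed, Tnf and Tnfrsf9, where 1.11% of all genes did, 0.515% with the KO response above and 0.591% with it below that of WT cells. After vehicle 0 of 9 genes passed in limma, where 0% of all genes did, and 0 of the 9 had an unadjusted p under 0.05, as 778 of 17097 genes had. At 0 h 0 of 9 passed in limma, where 0.14% of all genes did, and Ltb had an unadjusted p of 0.047 for -0.60 ± 0.28 (adjusted p = 0.793). The KO and WT arrays did not overlap at 0 h for Ltb, Tnfsf9 and Tnfsf10, each with the lower values in KO cells, 3 of 9 genes against 14.6% of all genes, and after vehicle for 0 of 9, against 12% of all genes. Ltb and Tnfsf10 were each above the nonspecific level in 1 of 3 WT and 0 of 3 KO arrays at 0 h. The intervals bound these differences more loosely for some genes than for others, and their width did not follow brightness. After vehicle the 95% interval was -1.21 to 0.14 for Tnf and -1.0 to 1.32 for Tnfsf9. It was -0.44 to 0.51 for the dim Tnfrsf9, -0.43 to 0.08 for Tnfrsf1a and -0.18 to 0.43 for Tnfrsf1b.

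**Figure D3:**
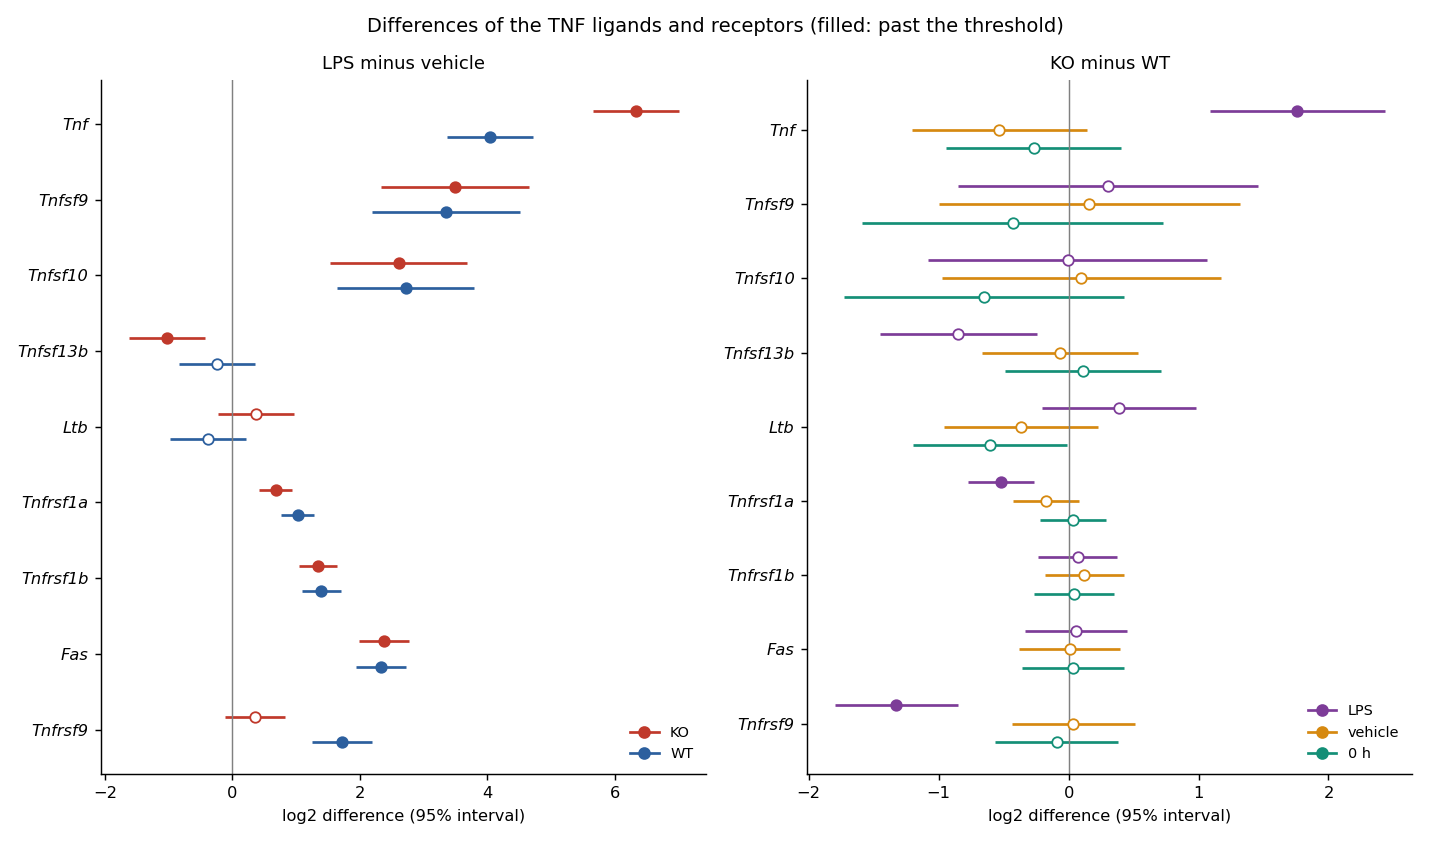
Log2 differences with 95% intervals for the 9 genes, LPS minus vehicle in KO and WT cells (left) and KO minus WT after LPS, after vehicle and at 0 h (right). Filled points passed the adjusted threshold. KO and WT points part most for Tnf (6.33 in KO and 4.04 in WT cells) and Tnfrsf9 (0.36 in KO and 1.72 in WT cells).

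Vehicle against 0 h, a comparison that includes the 8 h without conditioned medium, differed in a smaller set. The vehicle itself, the time in culture and the plate rows differed too, and these effects cannot be told apart. In KO cells Tnfrsf1b rose and Tnf, Tnfsf9 and Tnfrsf1a fell, 4 of 9, where 12.5% of all genes passed, 6.76% rising and 5.79% falling. In WT cells Tnfrsf1b rose and Tnfsf9 fell, 2 of 9, where 14.2% of all genes passed, 7.16% rising and 7.01% falling. The fall of Tnf was -1.08 ± 0.32 in KO cells (adjusted p = 0.035), and the WT difference was -0.81 ± 0.32 (adjusted p = 0.109). That of Tnfrsf1a was -0.41 ± 0.12 in KO cells (adjusted p = 0.0332), and the WT difference was -0.21 ± 0.12 (adjusted p = 0.324). Both KO calls were fragile: the Tnf call ended without KO 0 h replicate 1 or 3 or KO vehicle replicate 1 or 2 (adjusted p 0.104 to 0.147), and the Tnfrsf1a call ended without any 1 of 5 arrays, which were the 3 of KO 0 h and KO vehicle replicates 1 and 2 (adjusted p 0.0506 to 0.145). The WT Tnf difference passed without WT 0 h replicate 2 (-1.12, adjusted p = 0.035). Set directly against 0 h, the added comparison, LPS gave 4 genes that rose and 1, Tnfsf13b (-1.57, adjusted p = 0.000268), that fell in KO cells, where 37.4% of all genes passed. In WT cells 6 rose and none fell, where 35.5% of all genes passed. The difference between the genotypes in the change from 0 h to vehicle passed for 0 of 9 genes in limma, where 0% of all genes passed. In that fit 628 of 17097 genes had an unadjusted p under 0.05, 0 of them among the 9.

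Beyond these genes, 10 of 12 other ligands of the superfamily were measured, 5 of them above the nonspecific level in at least 3 arrays. In KO cells 4 rose with LPS and 3 fell (70%, against 34.5% of all genes), and in WT cells 3 rose and 2 fell (50%, against 32.3%). Lta, which encodes the soluble lymphotoxin that shares both TNF receptors, was above the nonspecific level in 2 of 3 LPS arrays of each genotype and in no vehicle array. It rose at least 1.56-fold in KO cells (fitted difference 1.92 ± 0.31) and at least 1.2-fold in WT cells (fitted difference 1.25 ± 0.31). Tnfsf4, which encodes OX40 ligand, rose by 1.68 ± 0.42 in KO cells, with 1 of 3 vehicle arrays above the level, and at least 2.64-fold in WT cells (fitted difference 1.53 ± 0.42), with no vehicle array above it. Tnfsf8, which encodes CD30 ligand, rose by 1.32 ± 0.30 in KO cells and 1.64 ± 0.30 in WT cells. Tnfsf13, which encodes APRIL, a B cell factor close to BAFF, fell (-2.75 ± 0.32 in KO cells and -2.27 ± 0.32 in WT cells). Tnfsf14, which encodes LIGHT, is counted among the falls (-0.99 ± 0.22 in KO cells and -0.66 ± 0.22 in WT cells), but no LPS or vehicle array was above the nonspecific level, so these differences lie within that level. The same holds for Fasl, counted among the KO rises, and Cd70, counted among the KO falls. The percentages of ligands called include these genes. None of the 10 passed between genotypes in any of the 3 conditions or in the difference between responses.

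Of 24 other receptors of the superfamily, 23 were measured and 11 were above the nonspecific level in at least 3 arrays. In KO cells 2 rose with LPS and 5 fell (30.4%, near the 34.5% of all genes), and in WT cells 6 rose and 4 fell (43.5%, against 32.3%). Tnfrsf25, counted among the WT rises, had no LPS or vehicle array above the nonspecific level. Cd40, the co-stimulatory receptor through which T cells activate macrophages, lay between 11.77 and 12.01 in KO LPS and between 10.25 and 11.70 in WT LPS arrays, against at most 4.0 in KO vehicle and 4.87 in WT vehicle arrays. Its rise was 8.11 ± 0.37 in KO cells and 6.88 ± 0.37 in WT cells, with 2 of 3 vehicle arrays of each genotype above the nonspecific level, and the difference between the responses did not pass (1.23 ± 0.53, adjusted p = 0.348). Tnfrsf22, a mouse decoy receptor for TRAIL, fell (-2.92 ± 0.56 in KO cells and -2.21 ± 0.56 in WT cells), and with dim values set at the level, which 2 of 3 KO LPS arrays passed, the KO difference was -2.22. Tnfrsf21, which encodes death receptor 6, fell (-2.18 ± 0.13 in KO cells and -1.56 ± 0.13 in WT cells). Tnfrsf13b, which encodes TACI, a receptor of BAFF and APRIL, fell (-1.36 ± 0.12 in KO cells and -0.71 ± 0.12 in WT cells). After LPS, 2 of 23 passed between genotypes, where 5.97% of all genes did. These were Tnfrsf13b (-0.59 ± 0.12, adjusted p = 0.00871) and Tnfrsf21 (-0.47 ± 0.13, adjusted p = 0.0494), both lower in KO cells. No alternative setting was run for single genes of this list. Over all genes, the 1020 calls of this comparison became 89 with only the groups compared in the fit.

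All 24 measured genes, of 27 listed, for receptor adaptors and for death or NF-kB signalling were above the nonspecific level in at least 3 arrays. In KO cells 11 rose with LPS and 5 fell (66.7%, against 34.5% of all genes), and in WT cells 12 rose and 4 fell (66.7%, against 32.3%). Traf1, an adaptor gene that NF-kB switches on, rose by 6.41 ± 0.21 in KO cells and 6.57 ± 0.21 in WT cells. Only 1 of 3 WT vehicle arrays was above the nonspecific level, and with dim values set at it the WT difference was 5.98. Mlkl, the executor gene of necroptosis, rose by 3.42 ± 0.29 in KO cells and 3.17 ± 0.29 in WT cells. Tnfaip3, which encodes the NF-kB brake A20, rose by 3.18 ± 0.21 in KO cells and 2.75 ± 0.21 in WT cells. The deubiquitinase genes Cyld (-1.51 ± 0.26 in KO cells and -1.0 ± 0.26 in WT cells) and Otulin (-1.03 ± 0.17 in KO cells and -1.12 ± 0.17 in WT cells) fell. After LPS, 1 of 24 passed between genotypes, where 5.97% of all genes did. It was Ikbkb, which encodes the kinase IKK-beta, 0.62 ± 0.12 higher in KO cells (adjusted p = 0.00656). The difference between the KO and WT responses of Ikbkb did not pass (0.69 ± 0.18, adjusted p = 0.0766).

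**Figure D4:**
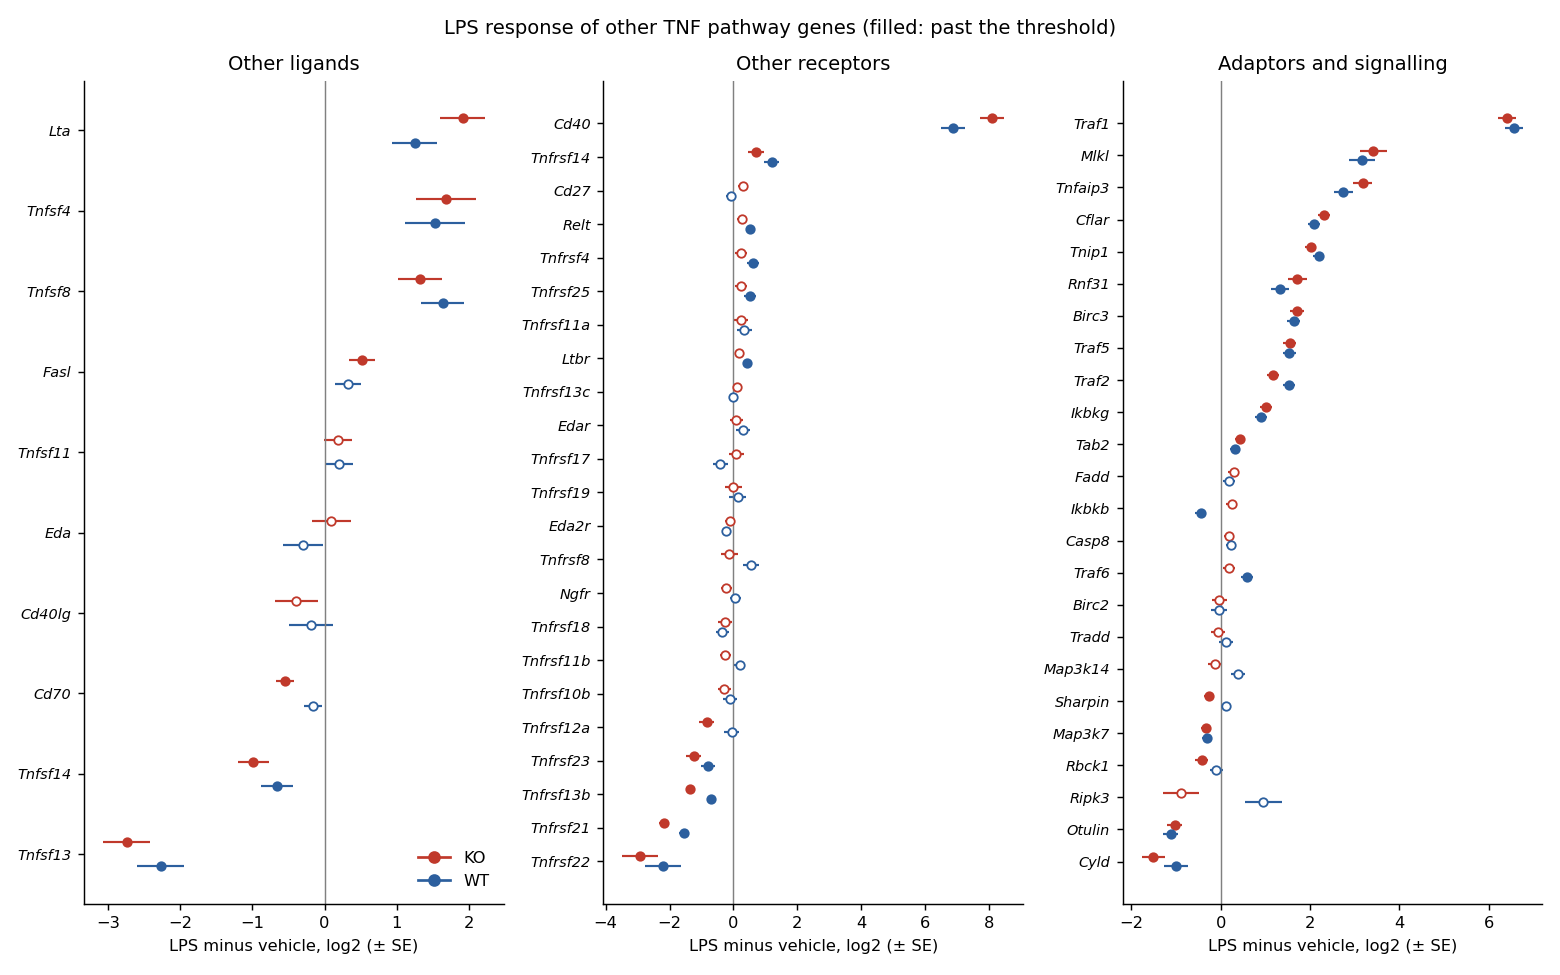
LPS minus vehicle (log2 difference ± SE, n = 3 arrays each) for the measured genes of the other ligands, the other receptors and the adaptor and signalling list, KO red and WT blue, filled where past the threshold. Cd40 (8.11 in KO and 6.88 in WT cells) and Traf1 (6.41 in KO and 6.57 in WT cells) lie furthest to the right in their panels, and Tnfsf13 (-2.75 in KO and -2.27 in WT cells) lies furthest to the left in its own.

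Of a list of genes tied to the shedding of TNF or to its mRNA, 10 of 11 were measured, all above the nonspecific level in at least 3 arrays. Zfp36 was the entry not measured. In KO cells 5 rose with LPS and 3 fell (80%, against 34.5% of all genes), and in WT cells 2 rose and 4 fell (60%, against 32.3%). Zc3h12a, which encodes the RNase regnase-1, rose by 3.23 ± 0.20 in KO cells and 2.53 ± 0.20 in WT cells. Rhbdf2, which encodes iRhom2, the partner of the TNF-cutting protease ADAM17, rose by 2.02 ± 0.12 in KO cells and 2.16 ± 0.12 in WT cells. Zfp36l1, which encodes an mRNA decay factor, fell (-3.61 ± 0.32 in KO cells and -3.68 ± 0.32 in WT cells). After LPS, 2 of the 10 passed between genotypes, both higher in KO cells, where 5.97% of all genes passed. These were Zc3h12a, by 0.90 ± 0.20 (adjusted p = 0.0128), and Rhbdf1, which encodes iRhom1, by 0.83 ± 0.21 (adjusted p = 0.0252). For Rhbdf1, 2 of 3 WT LPS arrays were above the nonspecific level. None of the 4 lists held a gene that passed in the difference between the responses to LPS, or between genotypes after vehicle or at 0 h. No alternative setting was run for single genes of the 4 lists.

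The genes whose levels ran most like each member were found by Pearson's r over all 18 arrays, which share the LPS contrast, so r is a description only. For Tnf these were Denr (0.988), Il18 (0.987) and Hcar2 (0.986). For Tnfsf9 they were Ets2 (0.949), Pfkp (0.945) and Ccl7 (0.941), and for Tnfsf10 Ifit1bl1 (0.972), Mtmr14 (0.971) and Iigp1 (0.970). Ets2 encodes a transcription factor, Ccl7 a monocyte-attracting chemokine and Iigp1 an interferon-inducible GTPase. Fas ran with Cflar (0.991), Rasgrp1 (0.989) and Casp4 (0.988). Tnfrsf1b ran with Relb (0.988), Acod1 (0.988) and Igsf6 (0.979), and Tnfrsf1a with Ctsc (0.960), Acvrl1 (0.959) and Glrx (0.952). Cflar encodes the caspase inhibitor c-FLIP, Relb a subunit of NF-kB and Acod1 the enzyme that makes itaconate. Tnfrsf9 ran with Timp1 (0.958), Insl3 (0.939) and Plekha5 (0.936), and Tnfsf13b with Ifitm6 (0.927), Fbxw2 (0.926) and Zfp810 (0.925). Ltb, dim throughout, had lower values, the highest with A630023A22Rik (0.801), 4930545H06Rik (0.777) and Them6 (0.736).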

How the data were processed

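RNA of 18 samples was hybridised to Affymetrix GeneChip HT MG-430PM arrays. The authors deposited linear intensity values, which Partek produced, per the submitters' processing notes, with its version, background correction and scaling not given in the sources used here. Array medians differed (11.4 to 18.6), so the log2 was taken and all 45141 probe sets were quantile-normalized, though the plan had assumed normalized log2 values. After 104 control probe sets were left out, 28898 of 45037 carried 1 gene symbol, 551 several and 15588 none. The probe set with the highest mean stood for each of 17097 genes. No filter on dim probe sets was used.

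A model with 1 mean per group was fitted with limma 3.58.1 in R 4.3.3 (lmFit, eBayes, two-sided, Benjamini-Hochberg adjustment within each of 9 comparisons, threshold 0.05), and tested on simulated data. For arrays, their number (3 per group) limits the precision. "At least" folds set the mean of the brighter group against the dim group's values raised to the nonspecific level. They allow for dim signal, and not for the spread between arrays or for other scalings. The members and gene lists were chosen with earlier results of these data known. From each list up to 3 called genes per direction and comparison with the largest differences, and per member the 3 genes with the highest correlation, could be named. Fasl and Tnfrsf25 were named besides, as calls without an LPS or vehicle array above the nonspecific level. No 2 arrays were identical, and r within groups was 0.977 to 0.994. Same-numbered replicates deviated together weakly or not at all, so the numbers were not used as pairs. Their r ran from -0.05 to 0.14 within a genotype and from -0.08 to 0.11 between KO and WT arrays. Alternatives covered scaling, probe set choice, dim genes, the groups fitted, moderation, blocks and leaving out arrays; LPS against 0 h and leaving control probe sets out of the scaling were added after seeing the data.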

Additional observations from a re-analysis of the deposited data

Results flagged for a closer look

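Results of Tnf and Tnfrsf9 differed between the genotypes by a test of the difference itself, the interaction of genotype and LPS in limma. For Tnf the LPS response was 2.29 larger in KO than in WT cells (log2, adjusted p = 0.0168), with 6.33 in KO cells and 4.04 in WT cells. For Tnfrsf9 it was smaller in KO cells, by a difference of -1.36 (adjusted p = 0.0491), with 0.36 in KO cells and 1.72 in WT cells, and KO LPS arrays were not above the nonspecific level. The distance of a single array from its group was not tested in groups of 3, and the results that change when 1 array is left out are given with their values.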

How the results depend on the processing

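Over all results and alternatives, 1356 values kept their side of the threshold, 43 no longer passed it, 4 newly passed it and 1 reversed. Of the 1356, 80 changed sign with neither value past the threshold, and the rest kept their direction. The reversal was Tnfsf13b in KO LPS against vehicle, 0.00 with the median of probe sets. The cause was not tested where none is named. The count of members with different LPS responses, 2, was 1 after shifting arrays to equal medians, with unscaled deposited values, with a median of probe sets or after raising values to the nonspecific level, 0 with only the groups compared, and 0 to 2 with 1 array left out. Differing after LPS, 3 members became 0 with only the groups compared, a fit with fewer arrays; vehicle against 0 h in KO cells, 4, was 2 to 4 with 1 array left out. With the replicate number as a block the LPS response differed for 2 members, Tnfrsf1a lost its KO fall between 0 h and vehicle (adjusted p = 0.0537), Tnf gained a WT fall (0.0395) and no other call of a member changed; the plate column block ended the KO fall of Tnf (0.0513). Tnfsf13b fell in WT LPS against vehicle with deposited values (-0.89, adjusted p = 0.0180), and in KO vehicle against 0 h with only the groups compared (-0.55, 0.0414).

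Scaling moved the median of all genes with deposited values to -0.44 for LPS in WT cells, 0.44 for the difference of responses, 0.29 for KO against WT after LPS, and -0.26 and -0.20 for vehicle against 0 h in KO and WT cells; KO against WT moved to -0.15 after vehicle and -0.10 at 0 h. With the same median it was 0.17 for the difference of responses, -0.22 and -0.11 for vehicle against 0 h in KO and WT cells, and -0.10 for KO against WT after vehicle. Higher and lower calls over all genes numbered 88 and 101 for the difference of responses (146 and 42 after shifting to one median, 278 and 16 without scaling), 482 and 538 for KO against WT after LPS (514 and 236, 1238 and 129), 19 and 5 at 0 h (16 and 9, 10 and 9), 2336 and 3191 for LPS in WT cells (1582 and 3868, 743 and 6697), 1155 and 990 for vehicle against 0 h in KO cells (338 and 2047, 199 and 1559) and 1225 and 1198 in WT cells (464 and 1420, 223 and 1468).

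Calls over all genes for the difference of responses were 189, and 289 among genes above the nonspecific level, 80 with only the groups compared and 117 to 497 with 1 array left out. KO against WT after LPS gave 1020, then 89 with only the groups compared and as few as 613 with 1 array left out; after vehicle 0, at most 3 (median of probe sets); at 0 h 24, then 45 with values raised to the level and 5 to 10 without 1 of 4 arrays; and vehicle against 0 h in KO cells 2145, as few as 1252 without 1 array. Signal near the nonspecific level limits Ltb, Tnfrsf9, the vehicle levels of Tnfsf9 and Tnfsf10, and 2 of 3 Tnfsf13b probe sets.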
